A study of Psammomys obesus with 8 samples.

Results

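The contigs described here carry the receptors for the main fast transmitters of the brain. They were taken from a methyl-CpG capture table by name: a contig was a member when the table placed its mouse match inside a gene (distance 0) and that gene encoded an AMPA, kainate, delta, NMDA or metabotropic glutamate receptor or a GABA-A receptor subunit. The names matched 618 of the 548060 contigs in the table, and 125082 contigs in all lay inside a mouse gene. Of the 45 receptor genes listed, 41 had at least 1 contig. Grin3b had none, and the NMDA subunit list is therefore 6 of 7 genes. Gabre and Gabrq had no contig inside them and 3 and 4 contigs at a distance, which were not counted as members. No measured value entered the rule that chose the members, although earlier results of these data were known when it was set.

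The libraries hold hypothalamic DNA of male fat sand rats (*Psammomys obesus*), gerbils that become obese and diabetic on rich laboratory chow. All were offspring aged 16 weeks, and the 8 libraries form 2 groups of 4. The low-low group has the diet label Low lipid and the standard-low group the label Standard Lipid. The design text speaks of the fathers' diet and the title of the parents' diet, and no genotype, strain or further treatment is given. Fragments were enriched with MethylMiner, in which an MBD2 domain on beads binds double-stranded DNA with methylated CpG sites, so a read count over a contig rises with the methylation of its CpG sites, with their number and with the amount of that sequence. Libraries of DNA before capture were not used here. Hypothalamus is a mixture of cell types, and a change in methylation within a cell type cannot be told apart from a change in the share of that cell type. The labels do not say that each library came from a separate animal, so the p-values reflect the spread between the samples at hand, which may be technical.

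Glutamate opens AMPA, kainate and NMDA receptors, which are cation channels built from 4 subunits, and it also acts on metabotropic receptors, which signal through G proteins. GABA opens GABA-A receptors, chloride channels that are assembled from several subunit classes and are the target of benzodiazepines and many anaesthetics. In the hypothalamus both kinds of receptor set the firing of the neurons that regulate feeding, energy use and hormone release. DNA methylation in gene bodies is common in neurons, and captured DNA is richest where methylated CpG sites lie close together.

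Printed first are the contigs on which the results turn. Each is read as the deposited table gives it, with every CpG in capitals and other bases in lower case, and for longer contigs the 300 bases with the most CpG are shown. Positions are those of the table's mouse match, on a mouse build not given in the sources used here. Whether a match lies in an exon or an intron was not analysed here. The Grik3 contig 1238329 (542 bases, of which bases 109 to 408 are shown, mouse chr4:125659438-125659831) had the lowest p of all receptor contigs. The Grm2 contig 3604202 (1485 bases, bases 586 to 885 shown, chr9:106646980-106648140) was the most abundant of the 10 receptor contigs with the lowest p. The Gabrd contig 1439078 (740 bases, bases 238 to 537 shown, chr4:155388242-155388678) led the GABA-A receptors. The Grin2a contig 2741056 (258 bases, shown whole, chr16:9816001-9816043) had the highest positive fold change among receptor contigs with an unadjusted p under 0.05. The Grik5 contig 1067918 (1820 bases, bases 719 to 1018 shown, chr7:25022436-25022627) stands for the receptor gene whose contigs were richest in CpG.
Grik3 1238329: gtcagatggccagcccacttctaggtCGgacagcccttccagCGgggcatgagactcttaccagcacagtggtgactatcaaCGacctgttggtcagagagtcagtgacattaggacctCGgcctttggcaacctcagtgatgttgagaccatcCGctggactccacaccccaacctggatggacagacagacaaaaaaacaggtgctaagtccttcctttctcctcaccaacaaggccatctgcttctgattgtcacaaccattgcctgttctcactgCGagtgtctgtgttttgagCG
Grm2 3604202: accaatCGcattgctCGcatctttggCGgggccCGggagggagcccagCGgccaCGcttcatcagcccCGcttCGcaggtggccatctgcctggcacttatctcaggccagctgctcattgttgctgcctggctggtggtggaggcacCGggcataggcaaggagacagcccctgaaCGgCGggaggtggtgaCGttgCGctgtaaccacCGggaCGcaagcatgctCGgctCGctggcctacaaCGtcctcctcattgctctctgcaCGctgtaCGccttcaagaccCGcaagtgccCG
Gabrd 1439078: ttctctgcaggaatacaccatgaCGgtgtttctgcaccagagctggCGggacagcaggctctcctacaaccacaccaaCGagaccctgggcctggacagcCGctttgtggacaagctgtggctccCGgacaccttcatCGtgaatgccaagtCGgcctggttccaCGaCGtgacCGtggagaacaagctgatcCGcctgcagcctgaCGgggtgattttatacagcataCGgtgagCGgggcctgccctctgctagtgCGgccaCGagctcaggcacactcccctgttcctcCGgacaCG
Grin2a 2741056: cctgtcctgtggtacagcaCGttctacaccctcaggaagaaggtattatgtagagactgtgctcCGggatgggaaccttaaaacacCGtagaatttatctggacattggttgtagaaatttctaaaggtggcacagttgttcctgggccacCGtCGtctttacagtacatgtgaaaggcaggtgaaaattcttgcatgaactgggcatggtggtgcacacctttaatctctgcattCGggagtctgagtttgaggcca
Grik5 1067918: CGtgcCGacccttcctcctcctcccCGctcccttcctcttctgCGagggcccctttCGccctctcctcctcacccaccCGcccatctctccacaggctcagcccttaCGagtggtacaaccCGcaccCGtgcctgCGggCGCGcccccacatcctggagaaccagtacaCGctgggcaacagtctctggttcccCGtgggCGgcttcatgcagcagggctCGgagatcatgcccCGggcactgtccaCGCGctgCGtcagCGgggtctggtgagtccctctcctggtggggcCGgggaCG

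The 3 sequences with dense capitals, from Grm2, Gabrd and Grik5, hold 22, 18 and 23 CpG sites in 300 bases, while the whole Grin2a contig holds 6 in 258 bases. The Grm2 contig can be read without a stop codon for 485 codons on 1 strand, which covers 98% of its length. The Grin2a contig contains cctttaatc, a stretch found in rodent B1 repeats, and its mouse match covers 43 bases of the contig. Those 9 letters, searched on both strands after the sequences were seen, occurred in 16 of the 618 receptor contigs (2.59%), in 2.81% of all contigs inside genes and in 1.47% of all contigs. A rule for placing reads from repeat copies was not given in the sources used here. A gene name rests on the mouse match alone: the match was under 100 bases in 142 of the 618 receptor contigs, and 65 contigs overlapped another receptor contig in mouse position and so share a place in the gene.

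Across the 8 libraries 11646180 to 13533441 reads were counted over contigs, and receptor contigs held 0.124% to 0.127% of them. A receptor contig had a median of 19 reads per library, a median length of 503 bases and a median of 2.18 CpG per 100 bases, against 20.8 reads, 518 bases and 2.26 CpG for all contigs inside genes. Levels are given as CPM, counts scaled to a common library size with a correction for library composition, and between genes only as CPM per kb of contig. On that scale the median receptor contig stood at 3.26 and the median contig inside any gene at 3.52. Standard-low library 2 had the lowest correlations of log2 counts with the other libraries, 0.669 to 0.714, against 0.740 to 0.795 among the remaining 7.

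The number of contigs followed the gene: Grik3 and Grik4 had 56 each, Grm8 had 52, and those 3 genes held 164 of the 618 contigs. Gabra2, Gabrg1 and Gabrr3 had 1 contig each, and the median gene had 10. A gene's summed CPM follows the number and length of its contigs, and sums are compared here only between libraries of the same gene. Per kb of contig, the order was led by the metabotropic receptors Grm6 (5.35 CPM per kb) and Grm2 (4.81), the GABA-A rho subunit gene Gabrr3 (4.73), the AMPA subunit gene Gria4 (4.65) and the kainate subunit gene Grik5 (4.46). Near its end stood Gria3 (2.63), Grm3 (2.61), Gabrg1 (2.15) and Gabra6 (2.06). No gene stood apart from its neighbours in the order: in all 40 neighbouring pairs, the ranges over 8 libraries overlapped. Over the 41 genes, CPM per kb went with CpG per 100 bases of contig (Pearson r = 0.52, Spearman rho = 0.48, across genes, which share libraries and are not independent replicates). The plot of captured reads per kb shows the order and the spread.

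**Figure D1:**
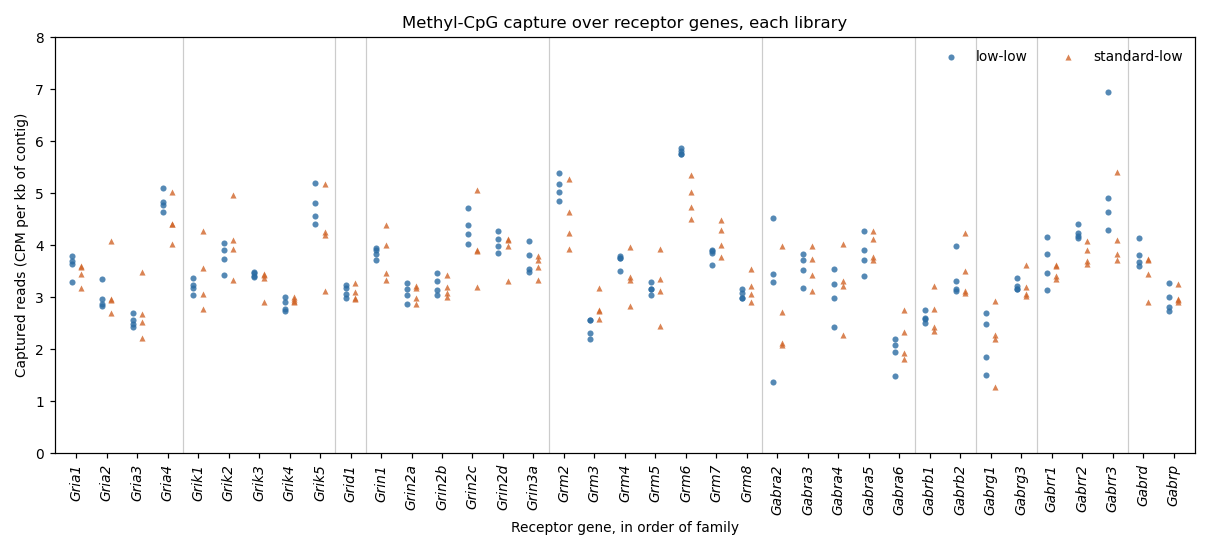
Captured reads in CPM per kb of contig (vertical axis, linear) for 37 of the 41 receptor genes, ordered by family along the horizontal axis, with 1 point per library (circles low-low, triangles standard-low). Grm6 has its 4 low-low points packed together above its 4 standard-low points, while Gabra2 and Gabrr3, with 1 contig each, scatter most.

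The comparison between standard-low and low-low offspring asked whether methylation over these receptor genes differed with the family diet. No receptor contig and no receptor gene passed an adjusted p of 0.05 in edgeR's quasi-likelihood test. Over all 548060 contigs 0.0268% passed, and over the summed counts of all 19098 genes 0.00524% passed. The lowest adjusted p was 0.564 for a receptor contig and 0.807 for a receptor gene. At an unadjusted p under 0.05, edgeR listed 46 receptor contigs (7.44%), 16 higher and 30 lower in standard-low, and limma voom listed 43 and DESeq2 22, with none past an adjusted p of 0.05 in either. The edgeR background was 5.68% of all contigs and 6.0% of contigs inside genes, and no such share is given for voom or DESeq2. By direction, 2.59% of receptor contigs were higher at that level, the same as the 2.59% of contigs inside genes, and 4.85% were lower against 3.41%. At an adjusted p of 0.05, edgeR found 1.49% of the contigs simulated at 1.5-fold in this design, 10.4% of those at 2-fold and 93.9% of those at 4-fold. Of genes simulated at 1.5-fold it found 55.2%, and of those at the smallest fold simulated for genes, which was below 1.5-fold, 20.9%. Differences of that smallest size in a gene sum were therefore mostly missed too. The simulated contigs were drawn from the whole table, and a 1.5-fold difference in a single contig was mostly not detectable at its depth.

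Summed per gene, 3 of 41 receptor genes (7.32%) had an unadjusted p under 0.05, 1 higher and 2 lower in standard-low. Over all genes it was 6.03%, with 1.71% higher and 4.32% lower. The same 3 were the genes whose 4 libraries of a group all lay on one side of the other 4, against a background of 3.48%. They were the metabotropic receptors Grm6 and Grm3 and the rho subunit gene Gabrr2. The median log2 fold change over the 41 genes was 0.00, with 21 genes higher and 20 lower in standard-low, while the median over all genes was -0.03 with 41.4% higher. Per gene, the mean level in standard-low differed from that in low-low by -17.9% to 16.6%. The coefficient of variation of a receptor gene over 4 libraries had a median of 6.21% in low-low and 9.88% in standard-low.

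**Figure D2:**
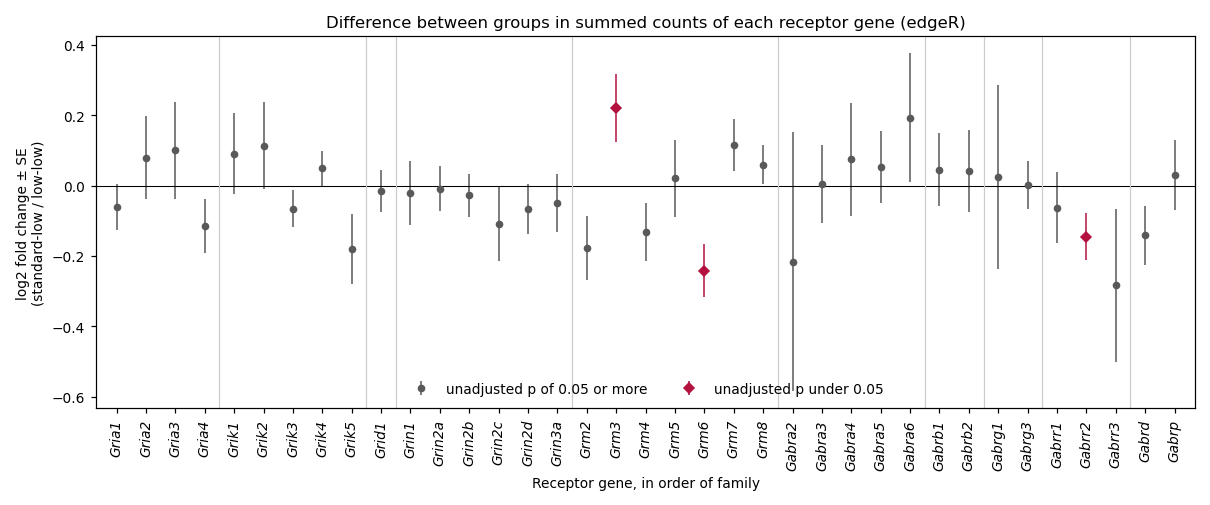
Log2 fold change of summed counts, standard-low over low-low, with its standard error from edgeR (vertical axis) for 37 of the 41 receptor genes in order of family. The red diamonds, Grm3 above 0 and Grm6 and Gabrr2 below 0, are the 3 genes with an unadjusted p under 0.05; none passed after adjustment.

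Among the metabotropic glutamate receptors, which fall into 3 groups by sequence and G protein, Grm6 had the lowest p of all receptor genes. It encodes mGluR6, the receptor of retinal ON bipolar cells, and no role in the hypothalamus is assumed here. Its 8 contigs on mouse chromosome 11 summed to 29.2, 29.2, 29.5 and 29.7 CPM in low-low libraries 1 to 4 and to 27.1, 22.9, 25.4 and 24.0 CPM in standard-low libraries 1 to 4. The low-low libraries were nearly equal, and every standard-low library lay below them. The means were 29.4 ± 0.255 and 24.9 ± 1.85 CPM (SD, n = 4 each). The log2 fold change was -0.24 ± 0.08 (SE), with an edgeR unadjusted p of 0.0042 and an adjusted p of 0.807. All 8 contigs of Grm6 had a negative log2 fold change, from -0.82 to -0.01. The 2 with an unadjusted p under 0.05, contigs 1870953 and 1495671, were the 2 richest in CpG, with 4.70 and 4.47 CpG per 100 bases. With scaling offsets for CpG density, the gene's log2 fold change was -0.16, and without standard-low library 2 it was -0.20.

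Grm3, which encodes a group II receptor of neurons and astrocytes that lowers cyclic AMP, was higher in standard-low; it is named because its groups did not overlap, after its values were seen. Its 13 contigs summed to 15.7, 15.7, 13.5 and 14.1 CPM in low-low libraries 1 to 4 and to 16.7, 19.4, 15.8 and 16.8 CPM in standard-low libraries 1 to 4. The lowest standard-low library lay just above the highest low-low libraries. The log2 fold change was 0.22 ± 0.10 (SE), with an edgeR adjusted p of 0.807. Without standard-low library 2 it was 0.16 (edgeR unadjusted p = 0.109), and with offsets for CpG density 0.20 (edgeR unadjusted p = 0.032). The DESeq2 unadjusted p was 0.054. In Grm3, 10 of 13 contigs were higher in standard-low, and none had an unadjusted p under 0.05. The single Grm3 contig with over 4 CpG per 100 bases, 2217062, was lower in standard-low, with a log2 fold change of -0.42.

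Grm2, the other group II receptor and an autoreceptor on glutamate terminals, is carried by 5 contigs, 4 of them lower in standard-low. Its sum was 23.2 ± 1.03 CPM in low-low and 20.5 ± 2.63 CPM in standard-low (SD, n = 4 each), and the groups overlapped because standard-low library 1 stood at 23.9 CPM. The Grm2 contig printed above held 8.71, 8.47, 7.30 and 8.37 CPM in low-low libraries 1 to 4 and 6.76, 5.82, 6.30 and 5.92 CPM in standard-low libraries 1 to 4. Here each standard-low library was below each low-low library. This contig's log2 fold change was -0.41 ± 0.15 (SE; edgeR adjusted p = 0.783).

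Grm4, a group III receptor on presynaptic terminals, had 5 of its 17 contigs at an unadjusted p under 0.05, 4 lower and 1 higher in standard-low. The 4 lower ones held 3.83 to 7.10 CpG per 100 bases and the higher one, contig 1937273, held 2.58. Summed, Grm4 stood at 39.8 ± 1.46 CPM in low-low and 36.3 ± 5.04 CPM in standard-low (SD, n = 4 each), with standard-low library 3 at 42.7 CPM above all low-low libraries and library 2 at 30.4 CPM below all. Over all 17 contigs of Grm4, 9 were higher and 8 lower. Grm7 and Grm8 are group III receptors too, and in Grm7 12 of 16 contigs were higher in standard-low, with a sum of 29.3 ± 1.02 CPM against 31.7 ± 2.41 CPM (SD, n = 4 each). Grm8, with 52 contigs, held 106, 112, 106 and 110 CPM in low-low libraries 1 to 4 and 114, 126, 104 and 109 CPM in standard-low libraries 1 to 4, so the groups overlapped. The group I receptor gene Grm5, whose product raises calcium through phospholipase C, had a log2 fold change of 0.02, smaller than its SE of 0.11. Over the 8 metabotropic genes, 132 contigs summed to 289 ± 4.28 CPM in low-low and 289 ± 10.1 CPM in standard-low (SD, n = 4 each).

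The kainate receptors, which modulate release and excitability, held the receptor contig with the lowest p. The Grik3 contig 1238329 held 1.91, 1.93, 2.57 and 2.76 CPM in low-low libraries 1 to 4 and 1.28, 0.422, 1.57 and 1.52 CPM in standard-low libraries 1 to 4. All standard-low libraries lay below all low-low libraries, and library 2 was lowest. The means were 2.29 ± 0.438 and 1.20 ± 0.534 CPM (SD, n = 4 each), a level 1.91 times as high in low-low. On the log2 scale the difference was -0.92 ± 0.27 (SE; edgeR adjusted p = 0.564). Without standard-low library 2 it was -0.64, and with offsets for CpG density -0.97. This contig holds 1.66 CpG per 100 bases, a density at which receptor contigs were more often higher than lower in standard-low. Summed over its 56 contigs, Grik3 held 134, 130, 131 and 133 CPM in low-low libraries 1 to 4 and 132, 111, 129 and 131 CPM in standard-low libraries 1 to 4. Standard-low library 2 alone lay well below the others, and without it the log2 fold change of the gene went from -0.07 to -0.01.

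Grik5 encodes a high-affinity kainate subunit that needs a partner such as the products of Grik1 to Grik3. It had the highest CpG density of the receptor genes, 4.03 per 100 bases, with 8 of its 17 contigs at 4 or more and 1 at 8.98. Its sum was 52.2, 53.9, 61.4 and 56.8 CPM in low-low libraries 1 to 4 and 50.2, 36.9, 61.2 and 49.6 CPM in standard-low libraries 1 to 4. The groups overlapped, with standard-low library 3 near the top and library 2 lowest of all. For the gene, edgeR gave a log2 fold change of -0.18 ± 0.10 (SE; adjusted p = 0.813), which was -0.06 without library 2 and -0.03 with the density offsets. Both Grik5 contigs at an unadjusted p under 0.05, 2345634 and 356606, were lower in standard-low and held 5.87 and 6.07 CpG per 100 bases. The printed Grik5 contig held 9.75 CPM over its 1820 bases. Grik4, the other high-affinity subunit gene, held 94.1 ± 3.99 CPM in low-low and 97.3 ± 1.47 CPM in standard-low, and Grik1 and Grik2 held 9.01 to 15.2 CPM in either group.

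The AMPA receptors carry most fast excitatory current. Gria1, with 25 contigs, held 51.4, 46.7, 53.5 and 52.1 CPM in low-low libraries 1 to 4 and 50.7, 45.0, 50.9 and 48.8 CPM in standard-low libraries 1 to 4, which overlap. Gria4 had the lowest p of the family, with 33.3 ± 1.35 CPM in low-low and 30.8 ± 2.88 CPM in standard-low (SD, n = 4 each), a log2 fold change of -0.11 ± 0.08 (SE) and an edgeR adjusted p of 0.821. Its contig 1615448 alone gave 41.4% of that sum. Gria2, which encodes the subunit that blocks calcium entry, and the X-linked Gria3 had log2 fold changes of 0.08 and 0.10, each smaller than its SE. Of 50 AMPA contigs, 1 was higher and 1 lower at an unadjusted p under 0.05. The delta receptor gene Grid1, whose product organises synapses more than it conducts, held 58.2 ± 2.15 CPM in low-low and 57.6 ± 2.72 CPM in standard-low (SD, n = 4 each), and 2 of its 38 contigs were lower at that level.

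The NMDA receptors are coincidence detectors that admit calcium and need the obligatory subunit from Grin1. At an unadjusted p under 0.05, 6 of their 109 contigs were higher and 6 lower in standard-low, and all 6 genes had small negative log2 fold changes, from -0.11 to -0.01, which turned positive in Grin1 (0.04) and Grin2d (0.003) without standard-low library 2 and in Grin1 (0.05), Grin2b (0.02) and Grin2d (0.02) with offsets for CpG density. Grin2b, with 35 contigs, held 60.0, 66.4, 63.3 and 58.1 CPM in low-low libraries 1 to 4 and 61.3, 65.5, 59.0 and 57.4 CPM in standard-low libraries 1 to 4, which overlap widely. Its contigs did not move together, with 2 higher and 3 lower. Contig 795848 held 0.557 ± 0.0923 CPM in low-low and 1.12 ± 0.279 CPM in standard-low. Contig 4515029, elsewhere in the gene, held 2.24 ± 0.742 and 1.35 ± 0.339 CPM (SD, n = 4 each). Their mouse matches covered 438 and 33 bases. The Grin2a contig 2741056 held 0.611, 0.520, 0.321 and 0.691 CPM in low-low libraries 1 to 4 and 0.941, 1.43, 1.16 and 1.10 CPM in standard-low libraries 1 to 4. Every standard-low library was above every low-low library, but these levels rest on few reads. Its log2 fold change of 1.09 ± 0.36 (SE) was the largest positive one among receptor contigs with an unadjusted p under 0.05, with an edgeR adjusted p of 0.721. Grin2c and Grin2d, which encode subunits of slow or small-conductance receptors, each had a contig among the 10 with the lowest p, 1231617 and 1525632, with log2 fold changes of -0.55 and -0.59. Both had standard-low library 3 inside the low-low range. In low-low and standard-low, Grin1 summed to 21.5 ± 0.558 and 21.2 ± 2.73 CPM, Grin2a to 48.6 ± 2.70 and 48.3 ± 2.51 CPM and Grin2c to 24.2 ± 1.62 and 22.5 ± 4.33 CPM (SD, n = 4 each). Grin2d summed to 50.8 ± 2.23 and 48.5 ± 4.79 CPM and Grin3a to 23.7 ± 1.75 and 22.9 ± 1.26 CPM. In all 5 the groups overlapped, and the difference was smaller than the larger of the group SDs.

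The Grm7 contig 2025611, whose mouse match covers 50 bases, showed the same direction as that of Grin2a and also contains cctttaatc. It held 0.458, 0.743, 0.401 and 0.691 CPM in low-low libraries 1 to 4 and 1.37, 1.35, 0.746 and 1.35 CPM in standard-low libraries 1 to 4. Standard-low library 3 only just exceeded the highest low-low library, and the other 3 lay well above. That gives a log2 fold change of 1.05 ± 0.36 (SE; edgeR adjusted p = 0.749). A second Grm7 contig, 3394551, held 0.696 ± 0.318 and 1.31 ± 0.280 CPM (SD, n = 4 each), and its groups overlapped. Of the 10 receptor contigs with the lowest p, 4 were higher and 6 lower in standard-low, and 5 had groups that did not overlap. Over all receptor contigs, groups did not overlap in 22 (3.56%), 12 higher (1.94%) and 10 lower (1.62%). Of contigs inside genes 3.35% did not overlap, 1.5% higher and 1.85% lower. All 10 contigs with the lowest p kept an unadjusted p under 0.05 without standard-low library 2 and with offsets for CpG density. They were picked for a low p in the same libraries, so this is not an independent check. Of all 46 receptor contigs with an edgeR unadjusted p under 0.05, 28 kept it without that library and 31 with the offsets.

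**Figure D3:**
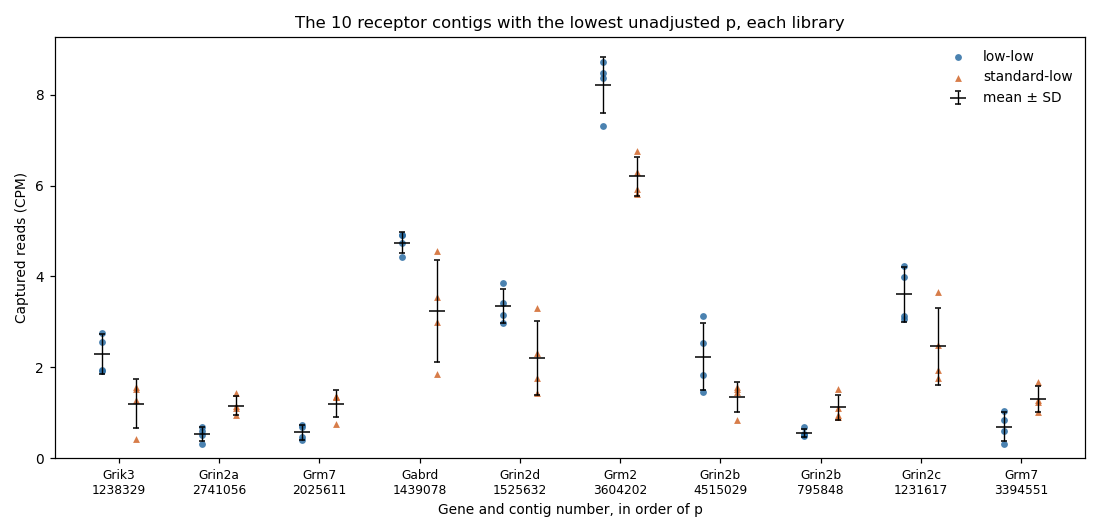
Captured reads in CPM (vertical axis, from 0) for the 10 receptor contigs with the lowest unadjusted p, in order of p along the horizontal axis, with each library as a point and the mean and SD of 4 libraries as a bar. In 5 contigs, among them Grik3 1238329 and Grm2 3604202, the groups do not overlap; Gabrd 1439078 has a standard-low library inside the low-low range.

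GABA-A receptor genes held 103 contigs in 16 of 19 genes, and 4 of these contigs were higher and 6 lower at an unadjusted p under 0.05. Gabrd encodes the delta subunit of extrasynaptic receptors that give tonic inhibition. Its contig 1439078 held 4.43, 4.90, 4.74 and 4.91 CPM in low-low libraries 1 to 4 and 2.99, 1.86, 4.56 and 3.55 CPM in standard-low libraries 1 to 4. Standard-low library 3 lay inside the low-low range, and library 2 was lowest. Its log2 fold change was -0.55 ± 0.19 (SE; edgeR adjusted p = 0.749), and it was -0.36 without library 2. Summed over 12 contigs, Gabrd held 29.8 ± 1.85 CPM in low-low and 27.0 ± 3.01 CPM in standard-low (SD, n = 4 each), with overlapping groups. Gabrp, which encodes the pi subunit found mostly outside the brain, held 12.6 ± 1.03 and 12.9 ± 0.659 CPM.

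The rho subunits form receptors that are prominent in retina. Gabrr2 held 38.4, 39.4, 40.9 and 38.8 CPM in low-low libraries 1 to 4 and 36.4, 33.7, 37.9 and 34.4 CPM in standard-low libraries 1 to 4. Its highest standard-low library lay just under its lowest low-low library. The gene's log2 fold change was -0.15 ± 0.07 (SE; edgeR adjusted p = 0.807). Its edgeR unadjusted p was 0.040, and it was 0.070 without standard-low library 2 and 0.058 with offsets for CpG density. The DESeq2 unadjusted p was 0.086. Its 13 contigs did not all point the same way: 8 were lower and 5 higher, and contig 444317 with a log2 fold change of 0.66 rested on a mouse match of 28 bases. The neighbour of Gabrr2 on mouse chromosome 4, Gabrr1, and the single-contig gene Gabrr3 also had negative log2 fold changes, -0.06 ± 0.10 and -0.28 ± 0.22 (SE), of which that of Gabrr1 was 0.02 with offsets for CpG density. Together the 22 rho contigs summed to 54.8, 57.6, 60.4 and 55.1 CPM in low-low libraries 1 to 4 and to 52.0, 51.2, 54.8 and 50.3 CPM in standard-low libraries 1 to 4. Low-low library 1 and standard-low library 3, both at 54.8 CPM, were where the groups met.

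Alpha and beta subunits form the GABA binding site, and alpha and gamma subunits together form the benzodiazepine site. The alpha gene Gabra5, with 4 contigs, held 12.1, 11.1, 14.0 and 12.7 CPM in low-low libraries 1 to 4 and 12.3, 12.1, 13.9 and 13.4 CPM in standard-low libraries 1 to 4. Gabrb1 held 14.9 ± 0.601 and 15.4 ± 2.27 CPM and Gabrb2 held 13.0 ± 1.52 and 13.4 ± 2.05 CPM in low-low and standard-low (SD, n = 4 each). Gabrg3, with 20 contigs, held 41.5 ± 1.23 and 41.6 ± 3.43 CPM. In none of these genes was the difference larger than the spread between libraries. Gabra5 and Gabrg3 lie on mouse chromosome 7 near the Prader-Willi domain, and their log2 fold changes were 0.05 and 0.00. The gene cluster of Gabra2, Gabra4, Gabrb1 and Gabrg1 on mouse chromosome 5 stood at 2.72 CPM per kb over 15 contigs, the lowest of the GABA-A chromosomes, and the chromosome 4 genes (Gabrd and, far from it, the neighbours Gabrr1 and Gabrr2) at 3.80 over 33. Genes with 1 to 3 contigs could be measured only loosely: Gabra6, an alpha subunit gene known from cerebellar granule cells, had a log2 fold change of 0.19 ± 0.18 (SE), Gabra2 -0.22 ± 0.37 and Gabrg1 0.02 ± 0.26. The X-linked Gabra3 held 11.1 CPM in both groups, and Gabra4 held 6.08 ± 0.949 and 6.39 ± 1.44 CPM.

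The direction of the receptor contigs went with their CpG density, as the plot of fold change against density shows. In the 49 receptor contigs with under 1.5 CpG per 100 bases, the median log2 fold change was 0.23. At an edgeR unadjusted p under 0.05, 7 of them were higher (14.3%) and 0 lower in standard-low. Among the 184 with 1.5 to 2 CpG the median was 0.08, with 5 higher (2.72%) and 4 lower (2.17%). Among the 275 with 2 to 3 CpG it was 0.01, with 3 higher (1.09%) and 8 lower (2.91%). Among the 72 with 3 to 4 CpG it was -0.13, with 1 higher (1.39%) and 8 lower (11.1%). In the 38 contigs with 4 or more CpG it was -0.23, with 0 higher and 10 lower (26.3%). These 38 contigs lie in 16 genes, with 8 in Grik5, 6 in Grm4 and 4 in Grin2d. The same trend ran through all contigs inside genes, whose medians in these classes were 0.11, 0.06, -0.02, -0.11 and -0.19. At an edgeR unadjusted p under 0.05, 5.92%, 3.98%, 2.11%, 0.729% and 0.456% of contigs inside genes were higher in the classes of rising density. In the same order, 0.837%, 1.246%, 2.95%, 6.86% and 12.4% were lower. Pearson r between density and log2 fold change was -0.36 over the 618 receptor contigs and -0.27 over the 125082 contigs inside genes, a description across contigs of the same 8 libraries. Whether receptor contigs follow the trend more steeply was not tested.

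**Figure D4:**
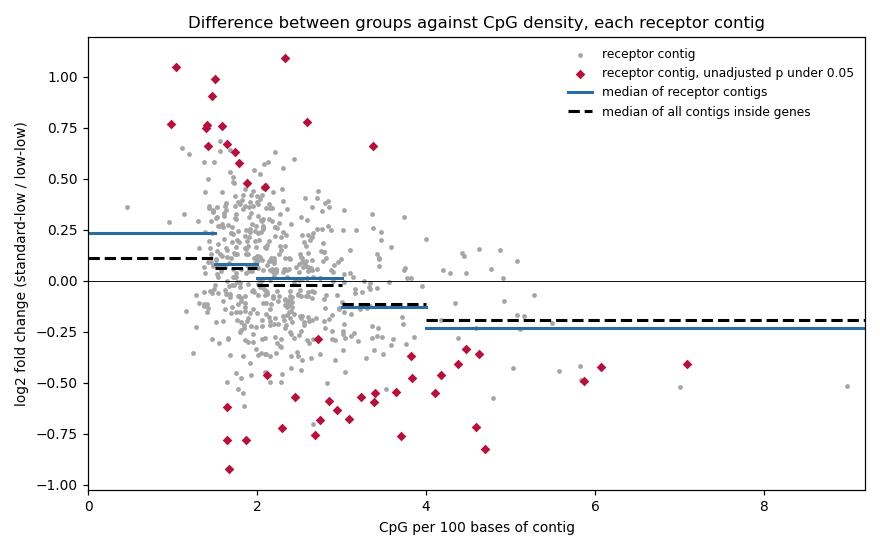
Log2 fold change of standard-low over low-low (vertical axis) against CpG per 100 bases (horizontal axis) for each of the 618 receptor contigs, with red diamonds for an unadjusted p under 0.05. The blue steps, medians of receptor contigs in each density class, go from 0.23 to -0.23, and the dashed steps for all contigs inside genes go from 0.11 to -0.19.

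By library, the 38 CpG-rich receptor contigs summed to 105, 112, 117 and 113 CPM in low-low libraries 1 to 4 and to 97.3, 77.1, 111 and 91.0 CPM in standard-low libraries 1 to 4. Standard-low library 2 was lowest and library 4 next, while library 3 stood among the low-low libraries. The 49 CpG-poor contigs summed to 63.6, 59.7, 61.4 and 55.8 CPM in low-low libraries 1 to 4 and to 68.9, 72.5, 64.2 and 71.2 CPM in standard-low libraries 1 to 4. Here all standard-low libraries lay above all low-low libraries, and library 3 was the closest to them. Over all contigs inside genes with 4 or more CpG, standard-low libraries 2 and 4 were again the lowest, with a mean deviation from the 8-library mean on the log2(CPM + 0.5) scale of -0.30 and -0.17, while standard-low library 3 was the highest of the 8 at 0.16. Under 1.5 CpG, the groups overlapped over all contigs inside genes, since low-low library 1 summed to 11265 CPM and standard-low library 3 to 11041 CPM.

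**Figure D5:**
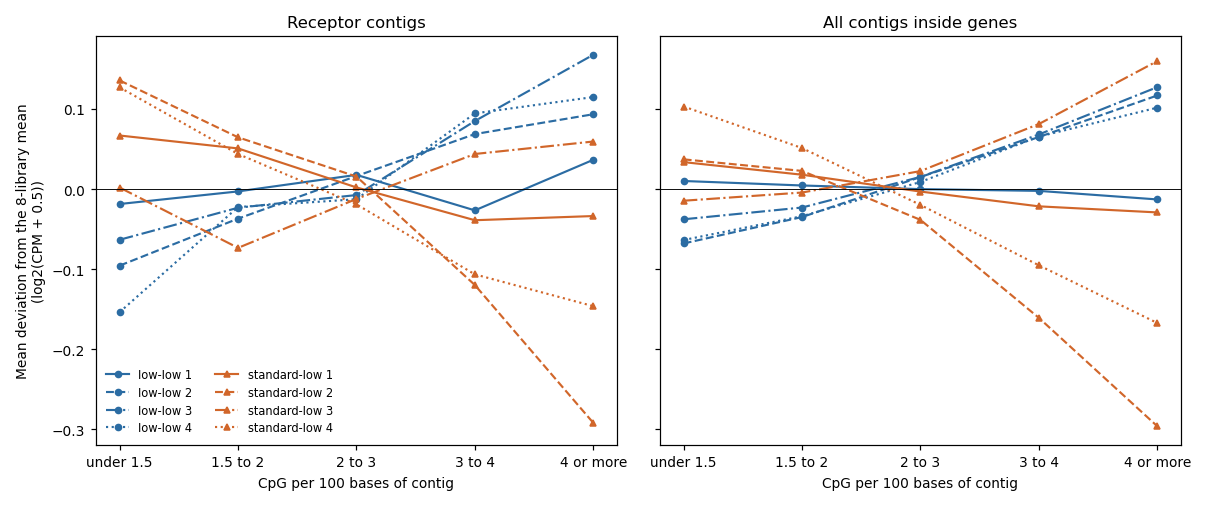
Mean deviation of each library from the mean of 8 libraries in log2(CPM + 0.5) (vertical axis) by class of CpG density (horizontal axis), for receptor contigs (left) and all contigs inside genes (right). Standard-low libraries 2 and 4 fall below 0 at 4 or more CpG in both panels, while standard-low library 3 lies among the low-low libraries on the left and above them on the right.

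Without standard-low library 2, 37 receptor contigs (5.99%) had an edgeR unadjusted p under 0.05, 16 higher and 21 lower. The CpG-rich class had 4 of 38 lower instead of 10, against 449 instead of 841 of 6803 contigs inside genes. Offsets that scale each library within 20 classes of CpG density were an alternative added after the data were seen. With them, 36 receptor contigs (5.83%) were at that level, 18 higher and 18 lower, and 31 were among the 46. With these offsets the median log2 fold change was 0.17 in the class under 1.5 CpG, with 6 contigs higher, and -0.12 in the class of 4 or more CpG, with 4 lower. Over all contigs inside genes these medians were 0.04 and -0.07, with 324 of 8726 higher and 323 of 6803 lower. Contigs inside genes numbered 8726, 33390, 58597, 17566 and 6803 in the classes of rising CpG density used above. Leaving out standard-low library 2 gave 495, 1265, 1213, 193 and 63 of them higher at an edgeR unadjusted p under 0.05. In the same order, 100, 477, 1572, 804 and 449 were lower. With the offsets, 324, 970, 1412, 302 and 97 were higher and 154, 658, 1586, 591 and 323 lower. Background shares over all classes together are not given for these settings. Over the 41 genes, log2 fold change and CpG density had a Pearson r of -0.51 (Spearman rho = -0.54) without offsets. With them, Pearson r was -0.11 and Spearman rho -0.23. The offsets scale each library by density class, so they weaken such a trend by design, and this fall is not a separate result. Whether a property of single libraries, such as the efficiency of capture, contributed to the receptor values was not tested.

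Other genes of the same synapses, from lists of scaffolds, auxiliary subunits, GABA-B and glycine receptors, transporters and transmitter enzymes, gave a similar picture. Of 59 listed genes 54 had contigs inside. Of their 725 contigs 20 were higher and 30 lower at an edgeR unadjusted p under 0.05 (6.9%, against 6.0% of contigs inside genes). None passed an adjusted p of 0.05. Scaffolds and anchors had 9 higher and 21 lower of 376 contigs (7.98%), auxiliary subunits 2 and 2 of 122 (3.28%) and GABA-B receptors 1 and 2 of 55 (5.45%). Transporters had 6 and 4 of 96 (10.4%), transmitter enzymes 2 and 1 of 53 (5.66%), and glycine receptors 0 of 23. Summed per gene, the scaffold gene Dlg2 was higher at an unadjusted p under 0.05 (76.0 ± 1.20 CPM in low-low and 84.0 ± 8.52 CPM in standard-low). The scaffold gene Shank3, the vesicular glutamate transporter gene Slc17a7 and the D-amino acid oxidase gene Dao were lower at that level, with edgeR adjusted p-values of 0.807. Slc17a7 held 17.4 ± 0.844 CPM in low-low and 15.0 ± 1.83 CPM in standard-low (SD, n = 4 each), and its groups did not overlap.

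Methylation counts do not show which cells a library came from, so the tissue label could not be checked by expression. Contigs in 21 of 25 listed marker genes of neurons, oligodendrocytes, astrocytes, microglia and endothelium had 10 higher and 10 lower of 332 at an unadjusted p under 0.05. That is 6.02%, near the 6.0% of all contigs inside genes. By list, higher and lower contigs were 3 and 3 of 118 for neurons (5.08%) and 0 and 3 of 26 for oligodendrocytes (11.5%). They were 1 and 0 of 31 for astrocytes (3.23%), 0 and 2 of 41 for microglia (4.88%) and 6 and 2 of 116 for endothelium (6.9%). Summed levels ranged from 69.6 to 73.6 CPM in low-low and 56.5 to 75.6 CPM in standard-low for oligodendrocyte genes, and from 88.9 to 91.8 CPM and 69.9 to 96.3 CPM for microglial genes. The neuronal genes lay at 244 to 254 and 233 to 262 CPM, astrocytic genes at 55.4 to 63.7 and 56.1 to 63.0 CPM and endothelial genes at 230 to 235 and 227 to 243 CPM. The microglial gene Tmem119 was the marker gene with an unadjusted p under 0.05, at 5.94 ± 0.836 CPM in low-low and 4.05 ± 0.988 CPM in standard-low (SD, n = 4 each), with an edgeR adjusted p of 0.807. Whether cell mixture contributed to the receptor values was not tested.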

How the data were processed

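The authors deposited 1 table of read counts over assembled contigs, whole numbers with no scaling, for 8 libraries, with each contig's sequence and, where found, its mouse match, nearest mouse gene and distance, per the file headers and contig names. FastQC and BWA are named in the submitters' processing notes; their versions, the assembler and the mouse build were not given in the sources used here. Library names in the header are space-separated and values tab-separated; names were given to columns in header order. The lowest summed count was 81, and contigs below some minimum are therefore not in the table.

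Members, gene lists, marker lists and rules were chosen with earlier results of these data known. Named were, per family, the gene with the highest summed CPM and the gene with the lowest p, and the 10 receptor contigs with the lowest p; others are given by level or count, and some listed genes and sequences are not reported here. Counts were tested with edgeR 4.0.16 (R 4.3.3) glmQLFit and glmQLFTest, TMM factors, two-sided, standard-low against low-low, with Benjamini-Hochberg adjustment over all 548060 contigs or, on sums of the contigs inside each gene, over all 19098 genes, at 0.05. A minimum mean of 10 counts per library removed none. CPM used the library total times the TMM factor. Family sums carry no test. Alternatives were DESeq2 1.42.0, limma 3.58.1 voom, RLE factors, filters of none and 20 counts, a replicate block, leaving out each library, mouse matches of at least 100 bases, contigs at any distance, the most abundant contig, and offsets for CpG density in 20 classes, the last added after the data were seen. The edgeR test was checked on simulated counts with 200 changed contigs or genes. No 2 libraries held identical values.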

Additional observations from a re-analysis of the deposited data

Results flagged for a closer look

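Over 122 groups of 4 libraries, 8 had a library that stood apart by Dixon's test at its 95% critical value, and chance alone gives about 1 in 20. In the standard-low group, library 2 lay below the other 3 in the summed level of Grik3 (111 CPM against 129 to 132), of the whole kainate family (273 CPM against 304 to 308) and of the GABA-A subunit genes Gabrd and Gabrp together (35.4 CPM against 40.8 to 41.7). Library 2 is also the library with the lowest level over CpG-rich contigs. Standard-low library 1 lay above the others in Gabrp (13.9 CPM against 12.4 to 12.7). In low-low, library 3 lay above the others in the kainate family (315 CPM against 301 to 303), and library 4 lay below them in the metabotropic receptor gene Grm4 (37.6 CPM against 40.4 to 40.8). In single contigs, standard-low library 3 lay below the others in the Grm7 contig 2025611 (0.746 CPM against 1.35 to 1.37), and standard-low library 4 in the Grin2b contig 4515029 (0.845 CPM against 1.45 to 1.57). The last 2 contigs are among the 10 with the lowest p, and their differences between groups point in opposite directions.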

How the results depend on the processing

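The genes named for the lowest p of their family (Gria4, Grik5, Grin2c, Grm6, Gabra6, Gabrg1, Gabrr2 and Gabrd) and the 10 receptor contigs with the lowest p were followed through the alternatives, and none of these 8 genes and 10 contigs passed an adjusted p of 0.05; adjusted p-values ranged from 0.0993 to 1 for the genes and from 0.188 to 1 for the contigs. Of their 290 log2 fold changes under alternatives, 286 kept their direction and 4 did not, and the cause was not tested: Grin2c was 0.035 for its most abundant contig, and Gabrg1 was -0.15 to 0.21 without 1 library, negative without low-low library 1 or 4 or standard-low library 4. The other receptor genes named here were compared under DESeq2, voom, the density offsets and without standard-low library 2. Without that library the sign changed in Grin2d (0.003), Grin1 (0.04), Gabra3 (-0.02), Gabrb2 (-0.07), Grik1 (-0.04), Grm5 (-0.09), Gria2 (-0.07) and Gabrb1 (-0.05). With the offsets it changed in Grin2d (0.02), Grin1 (0.05), Gabrr1 (0.02), Gabra3 (-0.04), Gabrg3 (-0.01) and Grin2b (0.02), and with voom in Gabrg3 and Grm5, which were then within 0.01 of 0.

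The 46 receptor contigs at an unadjusted p under 0.05 became 22 with DESeq2, 22 of the 290 that had a mean of 20 counts, and 34 to 55 without 1 library. The 3 receptor genes became 1 with DESeq2 and 1 to 7 without 1 library: 7 without standard-low library 3, and 1 without standard-low library 2, low-low library 3 or low-low library 4. With DESeq2 and without standard-low library 2 the gene that stayed was Grm6. The 147 contigs called over the whole table became 65 with the filter of 20 counts, which tests fewer contigs, 50 with voom, 32 with DESeq2 and 68 to 207 without 1 library, with 68 without low-low library 2 and 97 without standard-low library 4. The 1 gene called over all genes became 0 with voom, 2 with DESeq2, 3 with density offsets and 0 to 30 without 1 library, 30 without standard-low library 3 and 8 without standard-low library 2.

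Whether libraries of equal replicate number are paired is not stated in the labels, and the correlations cannot settle it. Deviations correlated at -0.014 to 0.092 over 4 pairs of equal number and at -0.114 to 0.055 over 12 pairs of different number. Of the 4 low-low libraries, 2 correlated best with their own number. With the replicate block, 206 contigs and 3 genes were called over the whole table, and 43 receptor contigs and 4 receptor genes had an unadjusted p under 0.05.

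Depth limits the contigs, and receptor contigs had a median of 19 reads per library. Of 67 contigs simulated at 2-fold, drawn from the whole table with its median of 17.4 reads, 10.4% were found. The simulation held no trend with CpG density. Short mouse matches limit the names: among the 46 contigs, 14 had a match under 100 bases.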
